A study of Homo sapiens with 46 samples.

Results

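Footprints of touching ribosome pairs, called disomes, were compared between cells treated with siRNA against 4EHP and cells treated with a control siRNA. The comparison rests on 4 disome libraries of the 46 libraries in the series, 2 from 4EHP knockdown cells and 2 from knockdown control cells, chosen by their labels. All 4 came from HEK293 Flp-In T-REx cells, an established human embryonic kidney line, with no other modification on the labels. Per the labels' protocols, cells of both groups were transfected a first time with siRNA at 75 nM, kept for 72 h, transfected again at 30 nM and harvested after a further 24 h. The labels give neither the sequences of the siRNAs nor what the control siRNA targets. Nor do they state that replicates were grown apart, so that a p-value here reflects how far these particular libraries scatter, in part perhaps for technical reasons. Monosome (single-ribosome) footprints and RNA-seq libraries of the same conditions, 2 per group each, were set beside the disomes. Disomes from cells with both ASCC3 and 4EHP siRNA (2 libraries) and with ASCC3 siRNA alone (1 library) served as the nearest other conditions. Libraries from cells with ABCE1 siRNA entered the disome and monosome fits, where they helped to estimate the spread, and were not compared themselves. Naive cells and the input of cells with wild-type tagged eRF1, from the other arm of the series, gave a baseline ratio of disomes to monosomes.

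4EHP is a cap-binding protein related to the translation initiation factor eIF4E. It binds the mRNA cap without recruiting the initiation machinery and so represses translation, together with the GIGYF proteins. With GIGYF2 and the ubiquitin ligase ZNF598 it is known to act on mRNAs whose ribosomes have collided, where a trailing ribosome runs into a stalled one. ASCC3 is a helicase that takes collided ribosomes apart. A collided pair shields a longer stretch of mRNA from nuclease than a single ribosome does, and disome profiling sequences that longer footprint. Disomes also form at ordinary pauses, such as those at stop codons.

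The files list Ensembl transcript IDs without gene names, and the tables used here hold no Ensembl transcript IDs. Features are therefore given by transcript ID and coding length, and at most 2 IDs per direction are printed. The 4EHP mRNA itself, its partners and the markers of the cell line could not be looked up by name. Transcripts of the same locus carried shared reads, so isoforms were joined and 1 representative transcript stood for each group. A feature is such a representative, and several features may still belong to 1 gene. Levels are given as CPM, the count of a feature relative to all counts of its library. Since a read shared by isoforms was counted in each of them, a CPM is a relative scale and does not count reads of the library.

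The disome libraries held 2239561 and 1381905 counts in 4EHP knockdown cells, and 4715435 and 2493885 counts in control cells. Monosome and RNA-seq libraries were deeper, with 10092703 and 13718248 monosome counts in 4EHP knockdown cells and 20183334 and 18268812 in control cells. Replicate disome libraries differed beyond counting error, with a chi-square per degree of freedom of 1.53 in 4EHP knockdown cells and 1.79 in control cells. The 2 RNA-seq libraries of 4EHP knockdown cells stood apart from each other, with a value of 13.9 against 1.97 for the control RNA-seq pair. CPM values show the distribution of disomes over transcripts and say nothing of the total number of disomes per cell.

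After 4EHP knockdown, 197 features rose and 224 fell in disomes among the 12456 tested, by edgeR's quasi-likelihood test at an adjusted p under 0.05. Together they were 3.38% of the features tested, 1.58% as rises and 1.8% as falls. An unadjusted p under 0.05 was found for 1741 features, and DESeq2, another test for counts, called 57 rises and 47 falls. The rises had a median log2 fold change of 0.90, from 0.37 to 3.75, and the falls a median of -0.86, from -6.12 to -0.41. In all 197 rises both 4EHP knockdown libraries lay above both control libraries, and in 222 of the 224 falls both lay below. Libraries of the groups did not overlap in 44.1% of all features tested, so non-overlap alone was common. In file order the 421 calls fell into 295 runs more than 40 lines apart, which shows that some neighbouring calls may stand for the same locus.

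How many features passed the test varied with their disome level. Below a log2 CPM of 2, 3 features rose and 2 fell of 2071 tested. Between 4 and 6, 66 rose and 105 fell of 2622, which is 6.52% of that class. At 6 and above, 65 rose and 68 fell of 854, or 15.6%. The median standard error of the log2 fold change was 0.42 for log2 CPM between 2 and 4, 0.23 between 4 and 6, and 0.15 at 6 and above. The smallest change called in the features between 2 and 4 was 0.84 on the log2 scale. Without 4EHP replicate 1 the test called 71 rises and 59 falls, without 4EHP replicate 2 it called 107 and 106, and without control replicate 2 it called 74 and 69. The number of calls thus rested on the presence of each of these libraries.

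**Figure D1:**
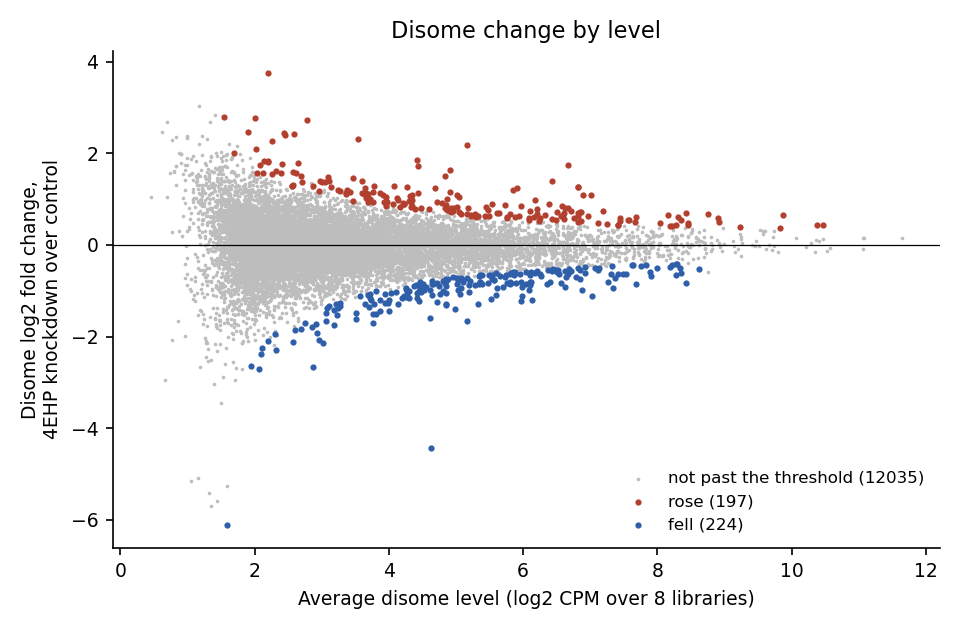
Disome log2 fold change of 4EHP knockdown over control (y axis) against average disome level in log2 CPM over the 8 disome libraries of the knockdown arm (x axis), one point per feature tested. The 197 rises and 224 falls reach smaller fold changes as the level increases, and 1 feature with a log2 fold change of -4.43 lies far below the other falls of its level.

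The largest rise among features with an average of at least 30 counts was ENST00000534403.5, a coding sequence of 163 codons. Its disome level was 57.6 and 52.8 CPM in 4EHP knockdown cells, against 12.7 and 11.6 CPM in control cells. Both knockdown libraries were thus far above both controls, with a log2 fold change of 2.17 (SE 0.22, adjusted p = 2.58e-19, edgeR). Monosomes on it were 8.22 and 9.99 CPM in 4EHP knockdown cells, against 4.01 and 3.89 CPM in control cells, a rise of 1.22 (SE 0.16, adjusted p = 8.76e-07, edgeR). Its RNA was 5.49 and 6.39 CPM in 4EHP knockdown cells, against 4.18 and 3.76 CPM in control cells. That RNA difference of 0.58 had no overlap between groups but did not pass the test (adjusted p = 0.589, edgeR). The disome change exceeded the monosome change by 0.96 (SE 0.27), which missed the threshold (adjusted p = 0.0737, edgeR).

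A feature of 735 codons close to it in the files changed in the same way and may share its locus. It held 145 and 132 disome CPM in 4EHP knockdown cells, against 43.9 and 37.3 CPM in control cells. Its monosomes were 36.5 and 37.2 CPM in 4EHP knockdown cells, against 17.9 and 18.3 CPM in control cells. Here the disome rise of 1.75 (SE 0.16) also exceeded the monosome rise of 1.03, by 0.72 (SE 0.17, adjusted p = 0.0126, edgeR). Under the same limit on counts, the second largest rise was a feature of 82 codons with 25.9 and 47.8 disome CPM in 4EHP knockdown cells, against 9.97 and 9.22 CPM in control cells. Its 4EHP knockdown replicates differed from each other, yet both exceeded the controls, with a log2 fold change of 1.86 (SE 0.26, adjusted p = 6.48e-10, edgeR).

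With that limit, the 12 largest rises ranged from 26 to 782 codons, with a median of 255.5, and from 1.26 to 2.17 in log2 fold change. All 12 had a positive monosome change, between 0.11 and 1.22, and 7 of them passed the monosome test. Of the 11 with an RNA value, none passed the RNA test, and their RNA log2 fold changes lay between -0.22 and 0.73. In 4 of the 12 the disome rise exceeded the monosome rise by the test of the difference.

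The largest fall among features with an average of at least 30 counts was ENST00000258416.8, a feature of 246 codons joined from 8 isoforms of 189 to 246 codons. It held 6 and 1 disome counts in 4EHP knockdown cells, against 248 and 72 counts in control cells, or 2.68 and 0.724 CPM against 52.6 and 28.9 CPM. Over the groups this is a ratio of 0.0435, with an exact counting interval of 0.0174 to 0.0908 at 95% confidence that covers counting error only. The fitted log2 fold change was -4.43 (SE 0.37, adjusted p = 5.78e-28, edgeR). Its RNA was also lower, at 1.25 and 1.06 CPM in 4EHP knockdown cells, against 14.3 and 15.2 CPM in control cells. The RNA log2 fold change was -3.66 (SE 0.19, adjusted p = 1.28e-07, edgeR), and it was among the 4 features that passed the RNA test.

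Monosome counts on ENST00000258416.8 did not follow. They were 11.2 and 6.49 CPM in 4EHP knockdown cells, against 10.7 and 11.5 CPM in control cells, and the groups overlapped. The monosome change of -0.37 (SE 0.53) had an adjusted p of 0.874 in edgeR, and the disome change relative to monosomes, -4.11 (SE 1.35), had an adjusted p of 0.385. Where on the transcript the remaining monosome footprints lay cannot be read from counts per transcript. Whether this feature is the target of the 4EHP siRNA was not tested.

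Under the same limit on counts, the second largest fall was a feature of 313 codons with 3.13 and 7.24 disome CPM in 4EHP knockdown cells, against 14 and 17.6 CPM in control cells. Its log2 fold change was -1.70 (SE 0.37, adjusted p = 0.000567, edgeR), and without 4EHP replicate 1 it was -1.09 and lost the call (adjusted p = 0.335). A feature of 52 codons had 13.4 and 15.9 disome CPM in 4EHP knockdown cells, against 32.0 and 63.0 CPM in control cells, a change of -1.66 (SE 0.25, adjusted p = 9.38e-08, edgeR). Here the controls differed from each other more than the knockdown libraries did. The 12 largest falls had coding lengths from 52 to 337 codons, with a median of 154.5. All 12 had a negative monosome change, but between -0.37 and -0.05 only, and none of the 12 passed the monosome test. In 5 of the 12 the disome fall exceeded the monosome change by the test of the difference.

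**Figure D2:**
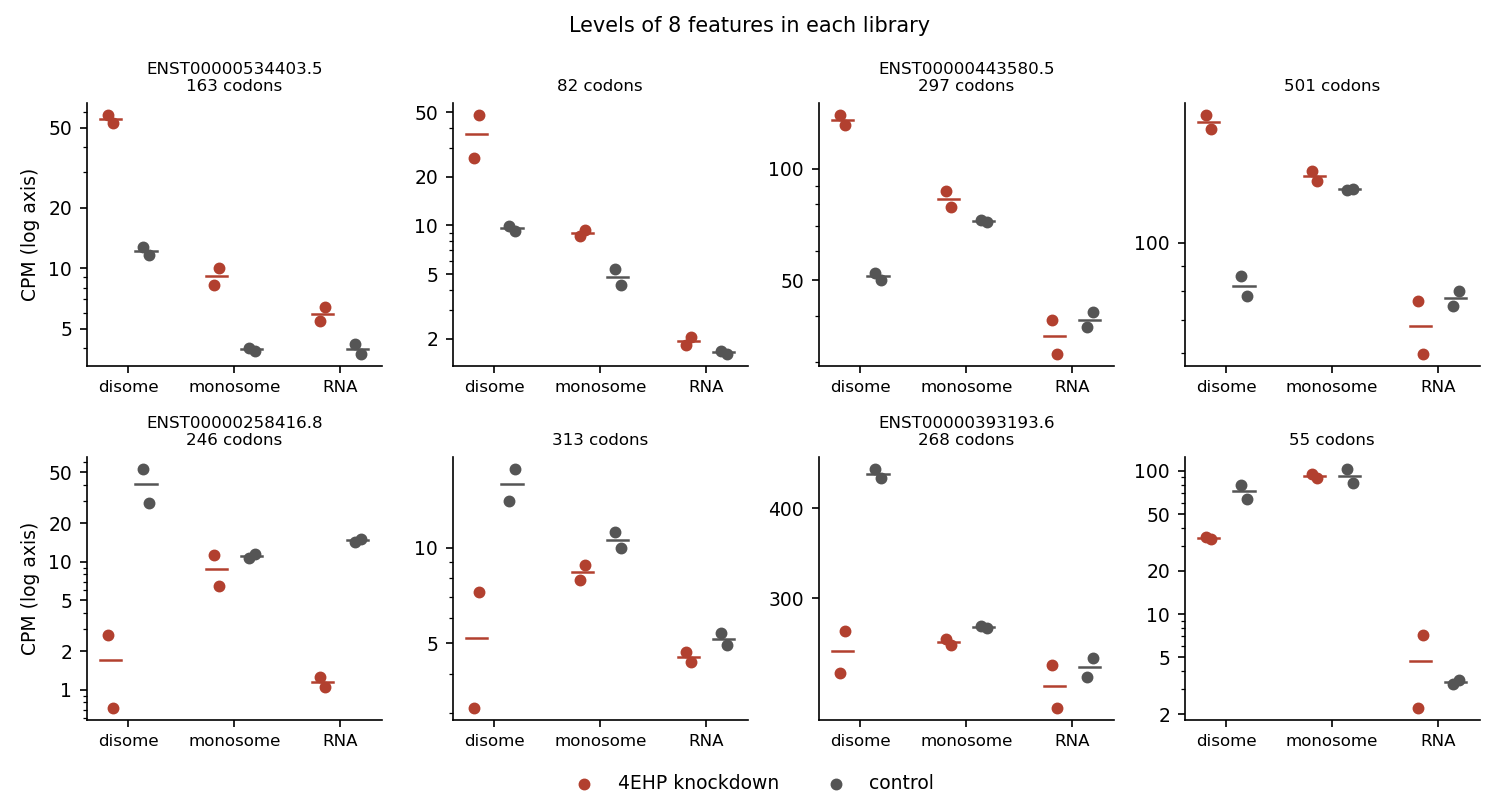
Levels in CPM (log axis) of 8 features in disome, monosome and RNA-seq libraries, with 4EHP knockdown libraries left of control libraries, points for the 2 libraries of a group and a line for their mean. The upper row holds features that rose in disomes and the lower row features that fell. In ENST00000443580.5 and ENST00000393193.6 the disome levels separate while the monosome levels stay close.

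Falls lay on shorter coding sequences than rises did. The falls had a median of 168 codons and the rises a median of 249, against 319 for all features tested. In the 11 other settings of the processing these medians were 136 to 179 codons for the falls and 227 to 264 for the rises. No test was made of this difference, since features are not replicates. Features were put into 5 classes with upper limits of 150, 300, 600 and 1200 codons and no limit in the last. In the shortest class, 63 features rose and 95 fell of 2587. In the class up to 300 codons, 50 rose and 85 fell of 3372, and in that up to 600 codons, 40 rose and 40 fell of 3395. Beyond 600 codons falls were rare, with 29 rises and 4 falls of 2258 features up to 1200 codons, and 15 rises and 0 falls of 844 above 1200.

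The same order held among the 3476 features with a disome log2 CPM of at least 4, where the test had more depth. Falls made up 11.5% of the class up to 150 codons, 7.54% of that up to 300, 3.0% of that up to 600 and 0.449% of that up to 1200, and there were 0 falls among 255 features above 1200 codons. Rises made up 6.14%, 3.77%, 3.10%, 3.14% and 2.35% of the same classes in order of length. Across all lengths at that level 3.77% rose and 4.98% fell. The median disome level varied little between the classes, from a log2 CPM of 5.16 in the shortest to 4.89 in the longest, and the median standard error from 0.21 to 0.22. In the 11 other processing settings the number of falls above 600 codons was 0 to 7, and the number of rises above 600 codons was 11 to 94.

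The length pattern extended beyond the features called. At a log2 CPM of at least 4 the median disome log2 fold change was -0.11 in the class up to 150 codons and -0.12 in that up to 300. It was -0.01 in the class up to 600 codons, 0.05 in that up to 1200 and 0.07 above 1200. Monosome medians for the same features lay between -0.03 and -0.00 in every class, so the medians did not follow length there. As a description across 3476 features, which share libraries and are not independent, the Spearman correlation of coding length with the disome change was 0.19, and with the monosome change 0.02.

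Each library was also set against the mean of the 4 disome libraries, as a median of log2(CPM + 5) over the features of a class. Up to 150 codons this was -0.01 and -0.06 in 4EHP knockdown libraries, against 0.05 and 0.04 in control libraries. In the class up to 300 codons it was -0.03 and -0.05 in 4EHP knockdown libraries, against 0.05 and 0.04 in control libraries. In the class up to 1200 codons it was 0.05 and 0.01 in 4EHP knockdown libraries, against -0.01 and -0.02 in control libraries. The groups did not overlap in these 3 classes. Nor did they in the class up to 600 codons, at 0.007 and -0.011 in 4EHP knockdown libraries, against 0.014 and 0.013 in control libraries. Non-overlap was thus not particular to the classes whose median changed most. Above 1200 codons it was 0.08 and -0.01 in 4EHP knockdown libraries, against -0.02 and -0.03 in control libraries. The groups did not overlap there either, but most of the difference came from 4EHP replicate 1.

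RNA medians followed length too, from -0.05 up to 150 codons to 0.09 above 1200 codons, with a Spearman correlation of 0.17 across 3469 features. This RNA gradient was seen in 1 of the 2 libraries. Above 1200 codons the RNA-seq deviation was -0.06 and 0.14 in 4EHP knockdown replicates 1 and 2, against -0.04 and -0.04 in control libraries. Up to 150 codons it was 0.02 and -0.06 in 4EHP knockdown replicates 1 and 2, against 0.01 and 0.02 in control libraries. RNA-seq replicate 1 of the 4EHP knockdown thus lay close to the control libraries in both classes, and replicate 2 lay apart from them. Deviations are from the mean of the same 4 libraries, so 1 outlying library shifts the others the opposite way. The opposite signs of the 2 knockdown replicates therefore do not show opposite effects. What part RNA length composition had in the disome pattern was not tested.

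**Figure D3:**
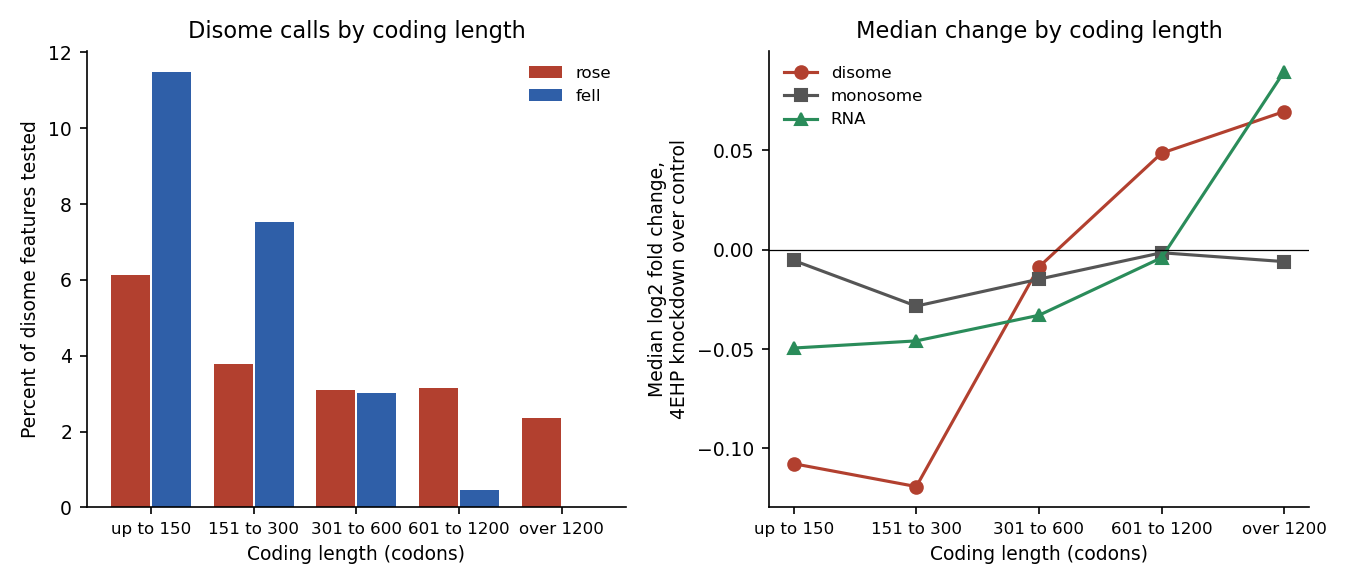
Left, percent of disome features that rose or fell after 4EHP knockdown in 5 classes of coding length in codons, for features with a disome log2 CPM of at least 4. Right, median log2 fold change of 4EHP knockdown over control in disomes, monosomes and RNA for the same features. Falls drop from 11.5% in the shortest class to 0 in the longest, and the disome median changes from -0.11 to 0.07, while the monosome median stays near 0.

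Summed over whole classes, shares of the disome counts differed by less than 1 percentage point. Coding sequences of the class up to 300 codons held 27.0% and 27.3% of the disome counts in 4EHP knockdown cells, against 28.1% and 28.1% in control cells, a difference of -0.96 percentage points. Those of the class up to 1200 codons held 18.3% and 18.5% in 4EHP knockdown cells, against 17.4% and 17.7% in control cells, a difference of 0.83 points. Both differences lay outside the range of the replicates. The exact two-sided permutation test gave p = 0.333 for each, the smallest value that 2 libraries against 2 allow. For up to 150 codons the shares were 20.7% and 20.9% in 4EHP knockdown cells, against 21.1% and 20.9% in control cells, and the groups overlapped (exact permutation p = 0.667). The share of this class in all disome counts thus moved little, although 95 of its features were called as falls. Monosome shares of the class up to 300 codons were also lower, at 27.1% and 27.2% in 4EHP knockdown cells, against 27.5% and 27.5% in control cells, a difference of -0.37 points without overlap. For up to 150 codons the monosome shares were 22.3% and 22.6% in 4EHP knockdown cells, against 22.2% and 22.1% in control cells, a difference of 0.32 points, opposite in sign to that of the disomes. Each of these gave the smallest exact permutation p that is possible, 0.333.

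Monosomes were tested in the same way. They gave 95 rises (0.334%) and 157 falls (0.552%) among 28419 features, 0.887% in all, with 51 and 51 by DESeq2. Of the 197 disome rises, 165 (83.8%) also had a positive monosome change, against 45.7% of all features tested in disomes. Of the 224 disome falls, 183 (81.7%) also had a negative monosome change, against 54.3% of all. The monosome changes were much smaller, with a median of 0.18 for the disome rises and -0.12 for the disome falls. Calls in both kinds of footprint numbered 25 rises, which are 12.7% of the disome rises and 26.3% of the monosome rises. Shared falls numbered 19, which are 8.48% of the disome falls and 12.1% of the monosome falls. Only 77 of the 95 monosome rises and 131 of the 157 monosome falls were tested in disomes, so the others could not be shared. No feature was called in opposite directions. Leaving out a monosome library gave 93 calls without 4EHP replicate 1, 128 without 4EHP replicate 2, 109 without control replicate 1 and 97 without control replicate 2. Whether disome and monosome libraries came from the same lysates is not stated on the labels.

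RNA-seq gave 0 rises and 4 falls among 33366 features, or 0.012%, in edgeR, although the unadjusted p was under 0.05 for 2201 features. DESeq2 called 1 rise and 12 falls. This count depended on the knockdown libraries used. With replicate 2 as the lone 4EHP knockdown library it was 893 rises and 561 falls, and with replicate 1 as the lone one it was 1 rise and 4 falls. Without control replicate 1, and likewise without control replicate 2, it was 2 falls. The disome rises had a median RNA log2 fold change of -0.02, with 89 of 194 positive. The disome falls had a median of -0.06, with 149 of 223 negative. As a description at a disome log2 CPM of at least 4, the disome change correlated with the monosome change at Pearson 0.45 and with the RNA change at 0.13. The change between libraries numbered 1 and the change between libraries numbered 2 correlated at 0.55 within disomes. These correlations are across features of the same libraries, which are not independent replicates.

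Disome changes beyond those of monosomes were tested directly, as the difference between both log2 fold changes in a joint fit. Of 25629 features tested, 44 rose (0.172%) and 52 fell (0.203%) relative to monosomes, 0.375% in all. DESeq2 called 62 and 106, and with TMM normalization, which rescales libraries by the bulk of their features, edgeR called 29 and 102, so that the balance between directions depended on the scaling. Of the 44 rises 40 were also called as disome rises, and of the 52 falls 48 were also called as disome falls. None was called in the opposite direction in monosomes. Relative rises had a median of 220 codons and relative falls a median of 153.5, against 226 for all features in this fit. All but 2 of these rises and 1 of these falls were also tested in disomes. The median of all features tested in disomes was 319 codons, so both directions were shorter than that. The total of 96 was 38 without disome 4EHP replicate 1, 168 without disome control replicate 1 and 60 without disome control replicate 2. It was 43 without monosome 4EHP replicate 2, 57 without monosome control replicate 1 and 49 without monosome control replicate 2. Seen from the disome calls, 40 of 197 rises and 48 of 224 falls were also past the threshold relative to monosomes.

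The smallest p-value in this test belonged to ENST00000443580.5, a coding sequence of 297 codons. Its disome level was 139 and 131 CPM in 4EHP knockdown cells, against 52.2 and 50.1 CPM in control cells. Its monosome level was 87.1 and 78.6 CPM in 4EHP knockdown cells, against 72.5 and 71.9 CPM in control cells. The disome groups were far apart and the monosome groups separated only slightly, with log2 fold changes of 1.4 (SE 0.16) in disomes and 0.19 (SE 0.07) in monosomes. The difference between them was 1.21 (SE 0.15, adjusted p = 2.62e-09, edgeR). RNA was 39.1 and 31.6 CPM in 4EHP knockdown cells, against 37.3 and 40.9 CPM in control cells, and the groups overlapped.

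A feature of 501 codons came next among the rises. It held 181 and 170 disome CPM in 4EHP knockdown cells, against 85.7 and 78.2 CPM in control cells. Monosomes were 140 and 133 CPM in 4EHP knockdown cells, against 128 and 129 CPM in control cells. Relative to monosomes it rose by 1.01 (SE 0.14, adjusted p = 8.15e-08, edgeR). Another, of 232 codons, held 213 and 221 disome CPM in 4EHP knockdown cells, against 110 and 93.4 CPM in control cells. It rose by 0.92 relative to monosomes (SE 0.13, adjusted p = 3.22e-07, edgeR). A feature of 933 codons held 109 and 120 disome CPM in 4EHP knockdown cells, against 52.6 and 71.8 CPM in control cells. Its monosome level was 47.2 and 46.1 CPM in 4EHP knockdown cells, against 53.8 and 52.3 CPM in control cells. The signs thus differed between the footprints, but the monosome change of -0.19 did not pass the test (adjusted p = 0.327, edgeR). Relative to monosomes the feature rose by 1.1 (SE 0.16, adjusted p = 3.22e-07, edgeR). Its RNA was 47.9 and 38.2 CPM in 4EHP knockdown cells, against 62.9 and 62.8 CPM in control cells. That RNA difference did not pass the test (adjusted p = 0.398, edgeR).

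Among the relative falls the smallest p-value belonged to ENST00000393193.6, a feature of 268 codons joined from 8 isoforms of 153 to 293 codons. It is an abundant feature, with 236 and 270 disome CPM in 4EHP knockdown cells, against 454 and 441 CPM in control cells. Its monosome level was nearly level between groups, at 263 and 258 CPM in 4EHP knockdown cells, against 274 and 272 CPM in control cells. The disome change was -0.83 (SE 0.13), the monosome change -0.07 (SE 0.06) and their difference -0.77 (SE 0.12, adjusted p = 5.32e-06, edgeR). RNA was 242 and 211 CPM in 4EHP knockdown cells, against 233 and 248 CPM in control cells, again with overlap.

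A feature of 55 codons showed the same with a shorter coding sequence. Its disome level was 34.4 and 33.3 CPM in 4EHP knockdown cells, against 80.4 and 64.2 CPM in control cells. Its monosome level was 95.4 and 89.5 CPM in 4EHP knockdown cells, against 103 and 82.7 CPM in control cells, with overlapping groups. The difference was -1.11 (SE 0.18, adjusted p = 2.99e-05, edgeR). This feature and ENST00000393193.6 were taken up as the relative falls of smallest p after their values were seen.

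**Figure D4:**
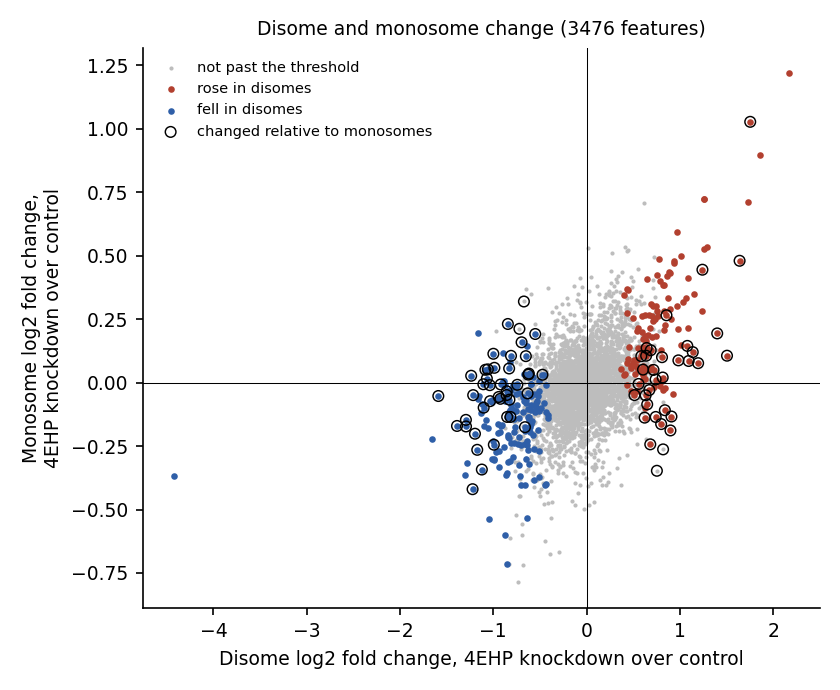
Monosome log2 fold change (y axis) against disome log2 fold change (x axis), both 4EHP knockdown over control, for the 3476 features with a disome log2 CPM of at least 4. Rises and falls in disomes are coloured, and features whose disome change differed from their monosome change are circled. Most coloured points lie in the quadrants of equal sign, with monosome changes smaller than disome changes.

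The 4 most abundant disome features of control cells did not pass the test. The most abundant, of 686 codons, held 3193 and 3780 CPM in 4EHP knockdown cells, against 3026 and 3252 CPM in control cells, and the groups overlapped. The other 3 averaged 2443 ± 20.1, 1976 ± 142 and 2299 ± 199 CPM in 4EHP knockdown cells, against 2198 ± 17.3, 2111 ± 146 and 2056 ± 30.2 CPM in control cells (SD, n = 2 each). Their log2 fold changes lay between -0.10 and 0.16, with adjusted p-values of 0.538 to 0.758 in edgeR, and that of the most abundant was 0.15 (adjusted p = 0.56). The smallest change called at a log2 CPM of 6 and above was 0.37.

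The level of disomes relative to monosomes in cells without siRNA was taken from the other arm of the series, from naive cells and the input of cells with wild-type tagged eRF1. Among features with a disome log2 CPM of at least 4, this log2 ratio had a median of -0.63 for the rises and -0.81 for the falls, against -0.60 for all 3476 features. When the features were ordered by this ratio and cut into 5 bins, in the bin of lowest ratio 27 rose and 49 fell of 696. In the bin of highest ratio 26 rose and 26 fell of 695. Rises were thus spread evenly over the baseline ratio, with 25 to 27 in each bin. Falls were most numerous where the ratio was lowest, with 49, 36, 27, 35 and 26 from the lowest bin to the highest. The lowest bin also had shorter coding sequences, with a median of 298.5 codons against 354 to 376 in the other bins. What part coding length had in this was not tested.

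An siRNA against 4EHP was also given together with ASCC3 siRNA, though the labels do not say whether its sequence was the same. Comparing those 2 libraries with the ASCC3 siRNA library gives an effect of 4EHP siRNA that shares no library with the main comparison, though its lone ASCC3 library was assumed to vary like the other groups. This comparison was added after the data were seen. It called 54 rises (0.434%) and 17 falls (0.136%) among 12456 features, 0.57% in all, with 7 and 4 by DESeq2. Of the 197 disome rises, 159 (80.7%) had a positive change in it, against 57.5% of all features, and the median was 0.53. With TMM normalization these shares were 76.6% and 51.5%. Of the rises, 28 were called there too, and none was called in the opposite direction.

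The falls were set beside the same comparison. A negative change in this comparison was found for 145 of the 224 falls (64.7%), against 42.5% of all features, with a median of -0.13. With TMM normalization the shares were 71.9% and 48.5%. The share among the falls was 52.2% without replicate 1 of the combined knockdown and 76.8% without replicate 2. Of the falls, 5 were called there too. Among the 12 largest rises all 12 had the same sign, with changes from 0.90 to 2.43, and among the 12 largest falls 7 had the same sign, with changes from -3.43 to 0.58.

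Single features showed both outcomes. ENST00000534403.5 held 55.3 and 72.9 disome CPM with both siRNAs, against 18.7 CPM with ASCC3 siRNA alone, a rise of 1.79 (SE 0.29, adjusted p = 2.20e-06, edgeR). Its RNA was 9.68 and 10.5 CPM with both siRNAs, against 9.50 and 10.8 CPM with ASCC3 siRNA alone, so the RNA did not separate these conditions. In control cells that RNA was 4.18 and 3.76 CPM, so it was also higher with ASCC3 siRNA alone. The lone ASCC3 library likewise lay above the 12.7 and 11.6 disome CPM of control cells. ENST00000443580.5 held 113 and 118 disome CPM with both siRNAs, against 42.3 CPM with ASCC3 siRNA alone, a rise of 1.45 (SE 0.23, adjusted p = 9.55e-07, edgeR). The effect of 4EHP siRNA differed between the backgrounds by 0.05 (SE 0.28, adjusted p = 0.984, edgeR). ENST00000258416.8 held 2.61 and 5.33 disome CPM with both siRNAs, against 46.5 CPM with ASCC3 siRNA alone, a log2 fold change of -3.43 (SE 0.34, adjusted p = 9.08e-20, edgeR). Its RNA was 1.77 and 1.61 CPM with both siRNAs, against 14.3 and 10.6 CPM with ASCC3 siRNA alone, so that it was low in all 4 RNA-seq libraries that received 4EHP siRNA. ENST00000393193.6 held 254 and 269 CPM with both siRNAs, against 352 CPM with ASCC3 siRNA alone, a change of -0.43 (SE 0.15) that did not pass the test (adjusted p = 0.224, edgeR).

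**Figure D5:**
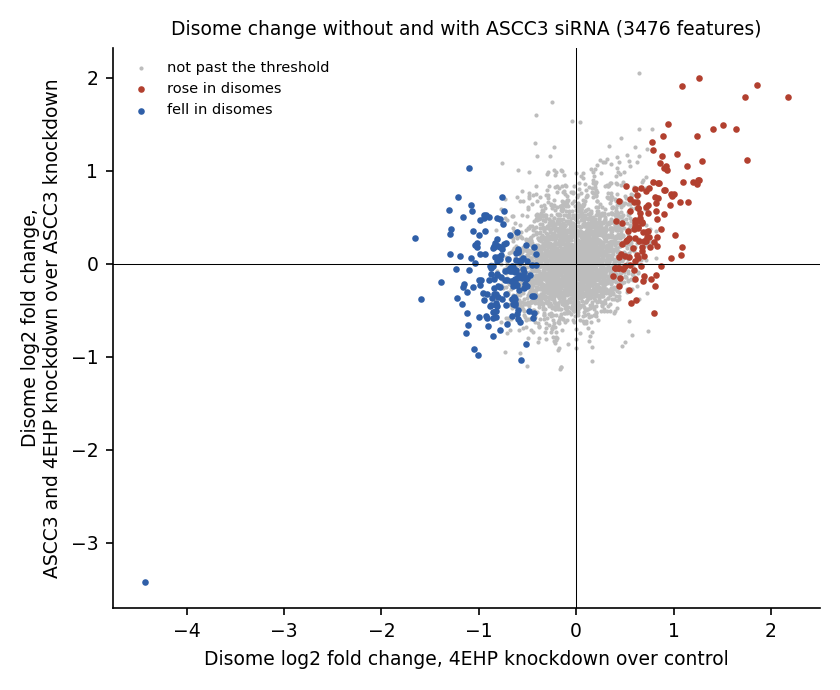
Disome log2 fold change of ASCC3 and 4EHP knockdown over ASCC3 knockdown (y axis, 2 libraries over 1) against disome log2 fold change of 4EHP knockdown over control (x axis, 2 libraries over 2), for 3476 features with a disome log2 CPM of at least 4. Features that rose after 4EHP knockdown lie mostly above 0 on the y axis, features that fell lie on both sides, and the feature at -4.43 also fell with ASCC3 siRNA.

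A difference between the effect of 4EHP siRNA in ASCC3 siRNA cells and its effect in control siRNA cells was called for 23 features of 12456, or 0.185%, with 17 upward (0.136%) and 6 downward (0.0482%). DESeq2 called 0, and edgeR gave an unadjusted p under 0.05 for 1042. This difference was not among the planned comparisons. It contains the main comparison with its sign reversed, and so shares the libraries of that comparison. A feature with an extreme change there tends toward a difference of opposite sign here. Most of the features called here had also been called in the main comparison. The feature of 232 codons above was among the features called. It held 84.9 and 72.9 disome CPM with both siRNAs, against 73.7 CPM with ASCC3 siRNA alone, and the difference of the effects was -0.99 (SE 0.25, adjusted p = 0.0434, edgeR). The feature of 52 codons was another, with a difference of 1.93 (SE 0.38, adjusted p = 0.00825, edgeR). It held 22.2 and 46.2 CPM with both siRNAs, on either side of the 29.6 CPM with ASCC3 siRNA alone.

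Cells with both siRNAs were last compared with cells given 4EHP siRNA alone. Adding ASCC3 siRNA gave 251 rises (2.02%) and 192 falls (1.54%) among 12456 features, 3.56% in all, with 13 and 109 by DESeq2. The median log2 fold change of all features was 0.10 in this comparison, and with TMM normalization the calls were 148 rises and 327 falls, so the balance of directions depended on the scaling. Without 4EHP replicate 1 the total of 443 was 119, without 4EHP replicate 2 it was 174, without replicate 1 of both siRNAs it was 293 and without replicate 2 of both siRNAs it was 124. ENST00000534403.5 differed by 0.23 (SE 0.18, adjusted p = 0.576, edgeR) between these conditions and ENST00000443580.5 by -0.23 (SE 0.15, adjusted p = 0.468, edgeR).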

How the data were processed

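Disome and monosome footprints and RNA-seq reads were analysed as whole-number counts per Ensembl transcript, as deposited by the authors. Per the submitters' processing notes, the authors used UMI-tools 1.1.1 and STAR 2.7.0a with the build hg38. Which program counted the reads, and on which annotation, is not given in the sources used here. The second column of the footprint files was read as coding length in codons, since 33.1% of the values in the deposited files are multiples of 3.

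Isoforms within 40 lines of each other were joined where their replicate differences correlated above 0.7, and the isoform with most counts stood for the group. This rule was applied to transcripts with at least 500 counts over all libraries. Those below were joined only where their counts were identical. The joining gave 54435 features from 97742 transcripts with counts, and 24030 of the features had at least 500 counts. In a simulation of 3000 loci the join placed 87% of the isoforms with their own locus, left 10.4% alone and put 2.67% with another. Its loci were drawn from features well above 500 counts, so these shares do not cover features of low counts.

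The test was that of edgeR 4.0.16 under R 4.3.3 (quasi-likelihood F test, robust, library size set to the sum of all counts, no further normalization, expression filter at a minimum count of 10), two-sided, with Benjamini-Hochberg adjustment over all features of a comparison and a threshold of 0.05. Each assay was fitted with all its libraries of the knockdown arm, which are 8 disome, 10 monosome and 8 RNA-seq libraries. Disome change relative to monosomes was an interaction over 18 libraries. In all, 7 comparisons were reported. That of both siRNAs over control siRNA was fitted too and left out, since it shares the control libraries. Alternatives were TMM, DESeq2 1.42.0, no filter, only the libraries compared, a replicate block, no joining, the longest isoform, and leaving out each library. Simulated data held 200 changed features of 12456, all drawn from those with a disome log2 CPM of at least 4. At that level the disome comparison recovered 54.5% at a log2 change of 0.7, 77.6% at 1 and 100% at 2. Of its calls 4.91% were false. Recovery at lower levels was not simulated. The comparison relative to monosomes, simulated in the same way with 25629 features, recovered 60.6%, 79.1% and 100% at these changes. There 8.05% of calls were false, above the threshold of 0.05.

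Single features were described by a rule: the 12 largest rises and the 12 largest falls among called, non-overlapping features with an average of at least 30 counts, the smallest p-values relative to monosomes, and the 4 most abundant. The gene lists and cell markers that were planned could not be applied, because the files give no gene names. Members, lists and classes were chosen with earlier results of these data known. The replicate numbers were not taken as pairs. Correlations of replicate differences between disome groups were 0.096, 0.122 and 0.224. No such values were taken for monosomes or RNA, so whether libraries of the same number share an effect there was not tested.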

Additional observations from a re-analysis of the deposited data

Results flagged for a closer look

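The effect of 4EHP siRNA differed between disomes and monosomes, by the test of the difference, in 96 features. The smallest p-values, 2 per direction, belonged to ENST00000443580.5, whose disome log2 fold change exceeded its monosome change by 1.21, a feature of 501 codons at 1.01, ENST00000393193.6 at -0.77 and a feature of 55 codons at -1.11. By edgeR the effect of 4EHP siRNA on disomes also differed between cells with ASCC3 siRNA and cells with control siRNA in 23 features. DESeq2 called 0. That comparison rests on a single ASCC3 library. It also shares the libraries of the main comparison, in which most of these features had already been called.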

How the results depend on the processing

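The features given by ID kept their direction and their side of the threshold in every setting run: disome log2 fold changes of 2.10 to 2.25 for ENST00000534403.5 and -5.79 to -3.88 for ENST00000258416.8, and differences from monosomes of 1.12 to 1.28 for ENST00000443580.5 and -0.85 to -0.66 for ENST00000393193.6. Numbers of calls moved by over 1.5 times in many settings, and the cause was not tested.

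Against 421 disome calls, DESeq2 gave 104, no filter 228 and all transcripts without joining 1114, where isoforms are counted repeatedly. Leaving out 1 disome library gave 130 to 331. Against 96 calls relative to monosomes, DESeq2 gave 168, only the libraries compared 146 and no joining 224, and leaving out 1 library gave 38 to 168. Against 252 monosome calls, DESeq2 gave 102, only the libraries compared 477 and no joining 788, and leaving out 1 library gave 93 to 128. Against 4 RNA calls, DESeq2 gave 13, no filter 694, only the libraries compared 1, no joining 24 and the longest isoform 8, and leaving out 1 library gave 2 to 1454. Against 443 calls of both siRNAs over 4EHP siRNA, DESeq2 gave 122, no filter 207 and no joining 1268, and leaving out 1 library gave 119 to 293.

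With the replicate number as a block, the calls were 548 in disomes, 241 relative to monosomes, 532 in monosomes, 7 in RNA and 578 for both siRNAs over 4EHP siRNA. The samples share only a number, so the replicate block was not used. Below a disome log2 CPM of 4 the smallest change called was 0.84 on the log2 scale, and the part of depth in the number of calls was not tested.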
